A study of Homo sapiens with 6 samples.

Results

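The antisense RNAs listed for LP-1 multiple myeloma cells were examined after depletion of RNF5, an E3 ubiquitin ligase held in the endoplasmic reticulum membrane. They were chosen by name alone, as every gene whose symbol ends in -AS with optional digits and does not begin with LINC, and 71 of the 1877 listed genes met that rule. Each was set beside its sense gene, the gene named before the hyphen, which was itself listed for 15 of the 71. LP-1 is an established human myeloma cell line, and the labels give blood as its tissue. RNA was sequenced in 6 libraries, of which 3 came from LP-1 cells depleted of RNF5 with a short hairpin RNA (the knockdown libraries) and 3 from LP-1 cells labelled as control, whose hairpin or vector the labels do not describe. The number of hairpins, the time to harvest, whether the knockdown cells were a pool or 1 clone, and whether libraries of a group came from separate cultures are not stated, so the p-values measure only the spread between these libraries.

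An antisense RNA is transcribed from the strand opposite to another gene, either across part of that gene or away from a shared promoter region. Some such RNAs act on the gene they face, by changing chromatin at its promoter, by pairing with its transcript or through the act of transcription itself, and many have no known role. A symbol ending in -AS records only position: it says nothing about whether the RNA controls its partner. Reads from exons that an antisense RNA shares with its sense gene can be assigned to the right strand only if the library keeps strand, and the labels do not say whether these did.

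By the GENCODE 29 annotation of GRCh38, which held all 71 genes, 38 antisense RNAs spanned the start of the sense gene, 15 lay inside it, 14 spanned its end, 3 spanned it whole, and SAP30L-AS1 began 107 bases upstream of SAP30L and ran away from it without overlap. In 25 of the 71 the start lay within 1000 bases of the sense gene's start. The share of an antisense RNA's exonic length that overlapped exons of its sense gene had a median of 10.3%. It was 0 in 13 of the 71, above 50% in 5, and 100% in TTBK2-AS1 and MFSD12-AS1. GENCODE gave 59 the class antisense, 7 lincRNA, 4 processed transcript and 1, KCNJ5-AS1, protein coding.

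Promoter windows of 3 pairs are shown because these pairs cover the directions seen below: opposite for CEBPB, both lower for SGO1 and both higher for C1RL. Each window runs from 250 bases before to 50 bases after a RefSeq start on GRCh38.p14, read 5′ to 3′ on the strand of its gene. Capitals mark matches, on either strand, to 5 motifs searched: GAANNTTC (a core of heat shock elements), CACGTG (an E-box), TGACTCA (an AP-1 site), CCAAT and TATAAA. The letters GAANNTTC and CACGTG read the same on both strands, and no matches overlapped in these windows. The CEBPB window, chr20:50190580-50190879 on the plus strand, is 1 of 2 RefSeq windows of that gene and the nearer to the GENCODE start. The CEBPB-AS1 window, chr20:50192020-50192319 on the minus strand, begins from a RefSeq start 571 bases from that of GENCODE. The SGO1 window is chr3:20186157-20186456 on the minus strand, and the SGO1-AS1 window is chr3:20174036-20174335 on the plus strand. The C1RL window is chr12:7109165-7109464 on the minus strand, and the C1RL-AS1 window is chr12:7108058-7108357 on the plus strand.
CEBPB: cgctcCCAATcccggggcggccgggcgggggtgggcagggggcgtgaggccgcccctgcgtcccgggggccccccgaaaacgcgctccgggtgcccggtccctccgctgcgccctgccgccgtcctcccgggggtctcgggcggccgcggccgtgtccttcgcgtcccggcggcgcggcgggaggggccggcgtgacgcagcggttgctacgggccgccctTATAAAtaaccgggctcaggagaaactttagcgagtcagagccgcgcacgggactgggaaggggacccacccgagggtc
CEBPB-AS1: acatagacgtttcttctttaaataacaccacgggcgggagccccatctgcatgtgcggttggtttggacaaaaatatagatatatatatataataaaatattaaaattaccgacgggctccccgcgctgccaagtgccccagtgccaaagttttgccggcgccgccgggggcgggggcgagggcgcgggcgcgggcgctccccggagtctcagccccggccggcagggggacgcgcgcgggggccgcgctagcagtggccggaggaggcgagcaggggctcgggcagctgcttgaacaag
SGO1: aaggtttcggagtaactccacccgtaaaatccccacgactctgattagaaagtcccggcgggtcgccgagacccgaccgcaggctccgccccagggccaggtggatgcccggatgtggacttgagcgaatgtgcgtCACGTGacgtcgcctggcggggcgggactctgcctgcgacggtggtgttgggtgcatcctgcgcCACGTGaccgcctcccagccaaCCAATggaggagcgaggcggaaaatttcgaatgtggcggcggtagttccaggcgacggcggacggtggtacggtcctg
SGO1-AS1: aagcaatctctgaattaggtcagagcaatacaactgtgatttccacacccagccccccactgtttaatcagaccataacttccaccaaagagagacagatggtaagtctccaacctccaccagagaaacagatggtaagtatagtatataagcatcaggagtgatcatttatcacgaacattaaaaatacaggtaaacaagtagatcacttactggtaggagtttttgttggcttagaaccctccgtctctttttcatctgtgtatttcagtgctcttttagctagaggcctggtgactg
C1RL: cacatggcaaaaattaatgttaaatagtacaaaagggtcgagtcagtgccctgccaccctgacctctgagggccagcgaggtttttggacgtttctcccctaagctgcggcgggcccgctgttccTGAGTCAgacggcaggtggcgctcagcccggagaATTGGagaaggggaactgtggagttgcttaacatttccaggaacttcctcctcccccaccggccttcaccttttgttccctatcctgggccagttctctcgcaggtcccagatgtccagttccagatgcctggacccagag
C1RL-AS1: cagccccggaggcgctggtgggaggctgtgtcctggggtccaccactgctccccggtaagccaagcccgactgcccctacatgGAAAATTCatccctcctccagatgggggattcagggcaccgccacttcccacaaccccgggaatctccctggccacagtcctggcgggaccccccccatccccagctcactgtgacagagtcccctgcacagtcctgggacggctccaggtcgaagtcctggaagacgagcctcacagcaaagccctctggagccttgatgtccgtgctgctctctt

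The CEBPB window held CCAAT and TATAAA and 43 CpG dinucleotides, and that of CEBPB-AS1 held none of the motifs and 31 CpG. The SGO1 window held CACGTG 2 times, CCAAT once and 33 CpG, whereas the SGO1-AS1 window held no motif and 2 CpG. The C1RL window held TGACTCA and CCAAT, both on the opposite strand, and the C1RL-AS1 window held GAANNTTC as GAAAATTC. RefSeq windows were matched for 48 of the 71 antisense RNAs (54 windows). Their median CpG count was 17.5, against 14 over all 35116 human windows and 24.0 over 12 windows of the listed sense genes. CCAAT was present in 12 of the 54 antisense windows (22.2%) and 34.6% of all windows, and TATAAA in 7 (13.0%) and 11.5%. GAANNTTC was present in 3 antisense windows (5.56%) and 6.77% of all windows. CACGTG and TGACTCA were each in 1 antisense window (1.85%), against 7.26% and 4.95% of all windows. Such small counts were not tested. These are letter matches and not measured binding sites.

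The deposited values were a normalized abundance per gene and library, whose scale is not stated. Levels are therefore compared between libraries, and genes were ordered by level only to choose some of those named. No level of an antisense RNA is read against that of its sense gene. The pair differences below compare changes, though the constant added to each value makes them depend on level. RNF5 itself had values of 95.4, 81.4 and 88.4 after knockdown against 1595, 1649 and 1248 in the controls, a 16.9-fold lower mean (log2 fold change -4.06 ± 0.16 SE, adjusted p = 1.34e-08). Over all listed genes, values summed to 116840 to 122080 after knockdown and to 90825 to 93975 in the controls. Of 13 plasma cell markers, only SDC1, ITGB7 and CD28 were among the listed genes. ITGB7 had values of 1665 to 1756 in the knockdown and 244 to 410 in the controls, SDC1 of 34.1 to 36.2 and 9.2 to 14.5, and CD28 of 18.3 to 22.2 and 5.14 to 7.09. Their sum, nearly all of it ITGB7, was 1719 to 1812 in the knockdown and 258 to 431 in the controls. None of 5 T and NK cell markers or 5 myeloid markers was listed. COL1A1, 1 of 5 fibroblast markers, had values of 0.07 to 0.44 in the knockdown and 0.47 to 0.72 in the controls, and CLDN4, 1 of 5 epithelial and packaging cell markers, had 1.29 to 1.48 and 1.85 to 3.17. The part of these markers in the antisense results was not tested.

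More antisense RNAs were higher than lower after RNF5 depletion. In the authors' deposited table, 52 of the 71 were listed as higher (73.2%, against 49.2% of all 1877 genes) and 19 as lower (50.8% of all genes). With limma on log2(value + 1), a scale on which changes of scarce RNAs come out smaller, 55 of the 71 had values high enough to test, which required a value of at least 1 in 3 libraries. An RNA that reached 1 in only 1 of the groups entered through that group alone. Separate groups were then a condition of its test, and its p-value is not separate support. Of the 55 tested, 53 passed an adjusted p of 0.05, a share to be read against 97.7% of all genes tested. The antisense RNAs higher in the knockdown numbered 41 (55.7% of all tested genes were called higher) and the lower ones 12 (42.0% of all tested genes). DAAM2-AS1 and LRP4-AS1 were tested and not called. The authors had chosen the listed genes on these same libraries, so these counts and p-values do not stand as independent evidence, and antisense RNAs outside the list have no values here.

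The 55 tested antisense RNAs had a median log2 fold change of 0.93, against 0.73 over all 1290 genes tested. As the list holds genes selected as changed, such a signed median depends on the mix of rises and falls. The median size of the change, without its sign, was 0.99 for the antisense RNAs and 1.02 for all genes tested. Among the 41 called higher the range was 0.35 to 2.17, with a median of 1.04, and among the 12 called lower it was -2.08 to -0.60, with a median of -0.92. A change of at least 2-fold on that scale was reached by 22 higher and 4 lower antisense RNAs (35.2% and 16.7% of all tested genes were that far higher and lower). Knockdown and control libraries did not overlap in 65 of the 71 (91.5%, against 93.2% of all listed genes). Control library 3 was the lowest control in 38 of the 71, and in 1170 of all 1877 listed genes, so this was not particular to the antisense RNAs. Knockdown library 1 was the lowest knockdown in 34 of the 71, which was not counted over all genes. The mean deposited value over the 6 libraries ran from 0.0767 to 40.6, with a median of 2.42.

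**Figure D1:**
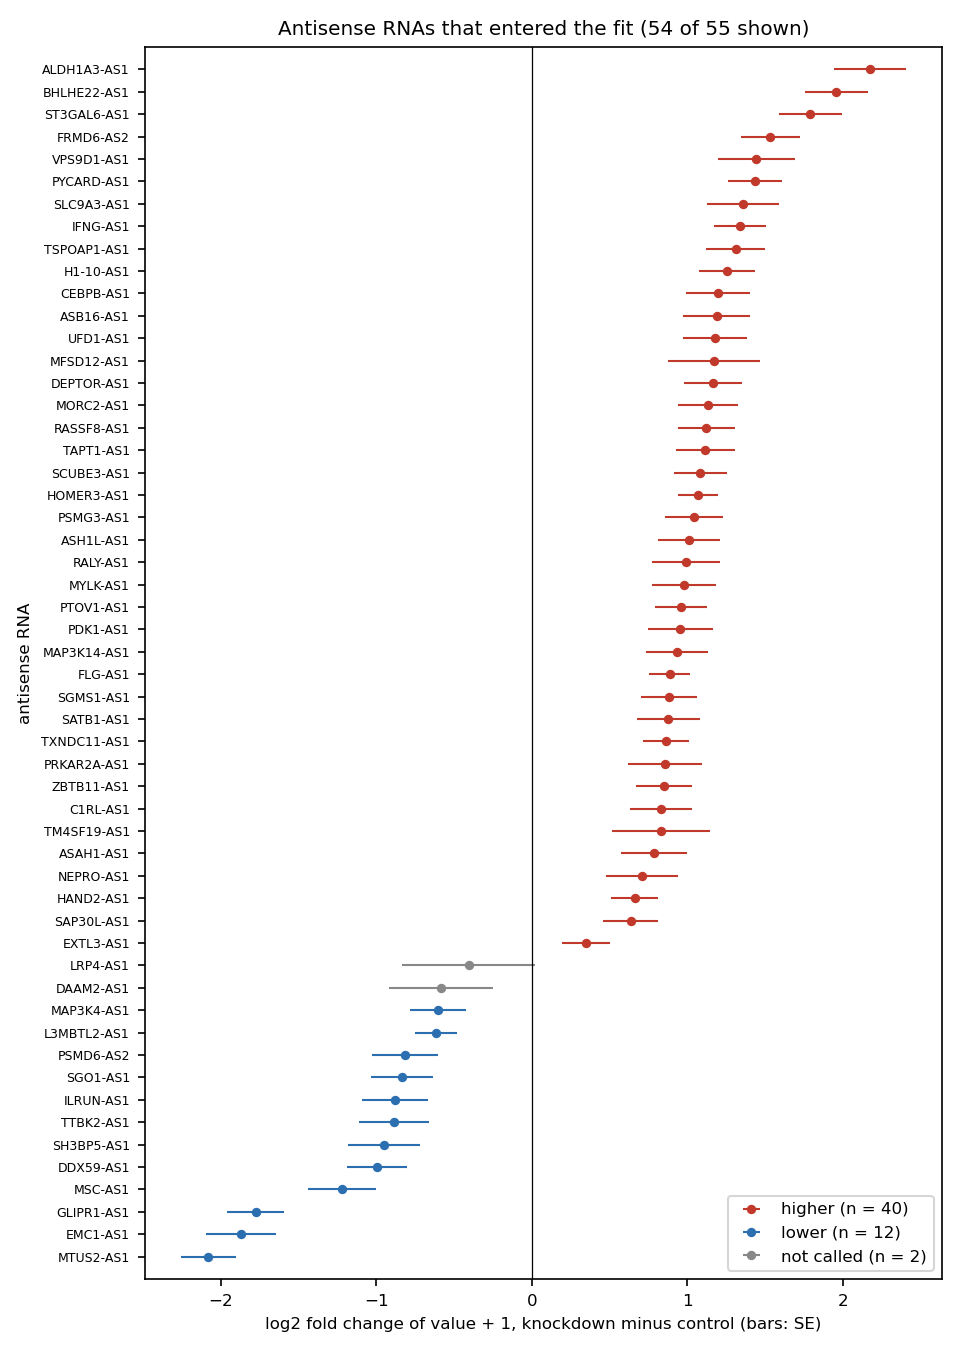
Log2 fold change (knockdown minus control, on log2(value + 1)) with its standard error for 54 of the 55 tested antisense RNAs, in order of size. ALDH1A3-AS1 is at the top with 2.17 and MTUS2-AS1 at the bottom with -2.08.

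In the 4 other classes described next, too, more listed genes were higher than lower, and among protein-coding genes fewer were. The authors' deposited table listed as higher 41 of 56 LINC genes (73.2%), 24 of 29 divergent transcripts with names ending in -DT (82.8%) and 49 of 68 numbered pseudogenes (72.1%), and 44 of 72 other rows described as antisense (61.1%). Of 1267 protein-coding genes it listed 515 as higher (40.6%). The median log2 fold change of the tested genes was 1.07 for LINC genes, 0.98 for -DT genes, 1.06 for numbered pseudogenes and -0.57 for protein-coding genes. The antisense RNAs had a median exonic length of 2743 bases and protein-coding genes one of 4917. Differences between classes were not tested.

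**Figure D2:**
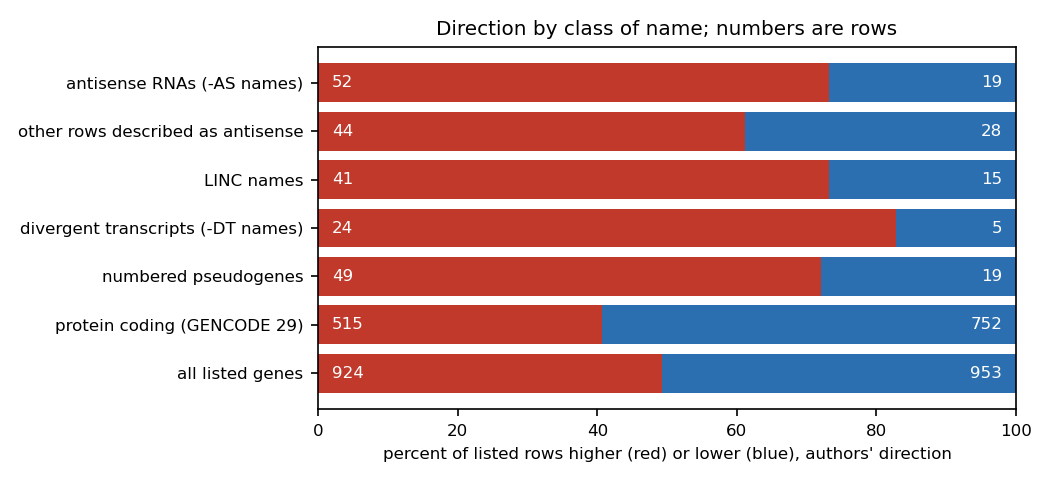
Percent of listed genes (horizontal axis) that the authors gave as higher (red) or lower (blue) in the knockdown, for each gene class, with the numbers of genes in the bars. Antisense RNAs stand at 73.2%, LINC genes at 73.2%, and protein-coding genes at 40.6%.

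Directions by arrangement are given as a description without a test, to be read against the 55.7% of all tested genes called higher and the 42.0% called lower. They are also to be read against all 55 tested antisense RNAs, of which 41 were called higher and 12 lower. Antisense RNAs that spanned the start of their sense gene were called higher in 26 and lower in 4 of 30 tested, with a median log2 fold change of 0.96. Those lying inside the sense gene were called higher in 5 and lower in 4 of 10 tested, with a median of -0.12 that falls between the rises and the falls, and the authors' deposited table gave 9 of all 15 as higher. Among those spanning the sense end, 7 of 11 were called higher and 3 lower, with a median of 0.93. Where the starts lay within 1000 bases, 18 of 21 tested were higher and 3 lower. Of 13 antisense RNAs sharing no exonic base with the sense gene the authors' deposited table gave 10 as higher and 3 as lower (76.9% higher). Of the 58 that shared some, it gave 42 and 16 (72.4% higher). Both shares were near the 73.2% higher among all 71 antisense RNAs, against 49.2% of all 1877 listed genes.

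**Figure D3:**
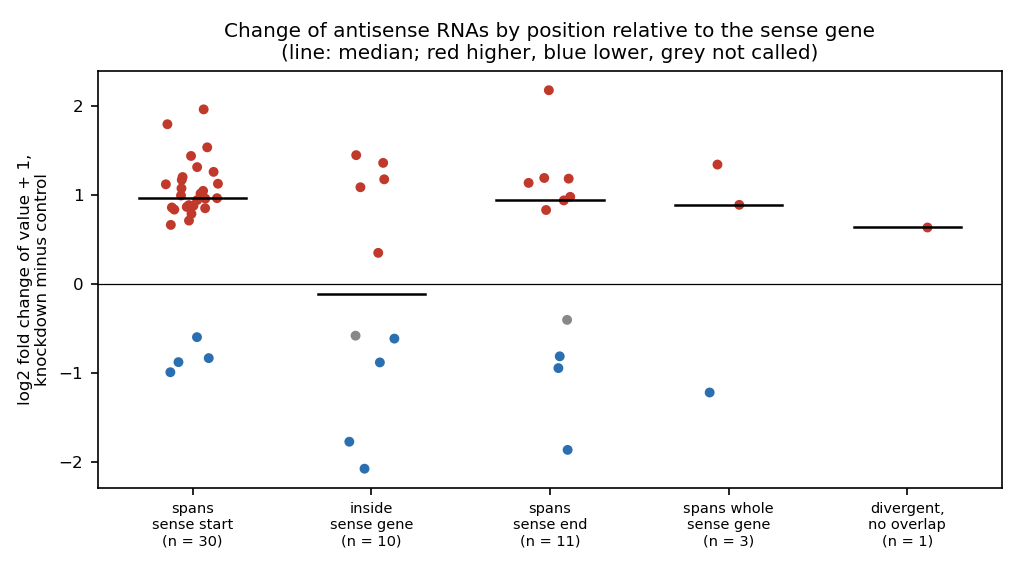
Log2 fold change of value + 1 (vertical axis, knockdown minus control) of the tested antisense RNAs, 1 point each, by position relative to the sense gene, with a line at each median. Antisense RNAs spanning the sense start have a median of 0.96 and those inside the sense gene one of -0.12.

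The rises and falls described next were named as the 10 largest of each among called antisense RNAs without overlap between groups. Their separate groups were thus a condition of naming and not a result. The largest rise among tested antisense RNAs was that of ALDH1A3-AS1, which faces the gene for a retinaldehyde dehydrogenase that makes retinoic acid. Its values were 26.7, 26.5 and 24.9 in the knockdown and 6.69, 5.67 and 3.19 in the controls. All knockdown libraries lay far above all controls, and the mean was 5.02-fold higher (26.0 ± 0.958 against 5.18 ± 1.80, SD, n = 3 each; log2 fold change 2.17 ± 0.23 SE, adjusted p = 1.18e-05). ST3GAL6-AS1, antisense to a sialyltransferase gene, had 37.9, 52.5 and 51.9 in the knockdown and 14.6, 14.1 and 10.3 in the controls. The groups were apart, with the knockdown mean 3.65-fold higher (47.4 ± 8.29 against 13.0 ± 2.34; log2 fold change 1.79 ± 0.20 SE, adjusted p = 1.86e-05). VPS9D1-AS1 had 58.8, 58.6 and 59.6 in the knockdown and 27.3, 25.9 and 13.1 in the controls. Its controls spread more than its knockdown libraries, through control 3, and the groups did not overlap (2.67-fold, 59.0 ± 0.550 against 22.1 ± 7.82; log2 fold change 1.44 ± 0.25 SE, adjusted p = 0.000222).

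PYCARD-AS1 and IFNG-AS1 were also among the 10 largest rises. PYCARD-AS1, which faces the gene of the inflammasome adaptor ASC and has 90.5% of its exonic length over PYCARD exons, had 4.65, 4.0 and 4.65 in the knockdown and 1.09, 1.09 and 0.85 in the controls. The mean was 4.39-fold higher, with narrow and separate groups (log2 fold change 1.43 ± 0.17 SE, adjusted p = 2.33e-05). IFNG-AS1, whose gene spans the whole interferon gamma gene without sharing an exonic base, had 2.64, 2.52 and 1.43 in the knockdown and 0.26, 0.33 and 0.15 in the controls. The lowest knockdown value, in library 3, was still above every control, for an 8.91-fold higher mean (2.20 ± 0.667 against 0.247 ± 0.0907; log2 fold change 1.34 ± 0.17 SE, adjusted p = 3.22e-05). IFNG-AS1 entered the test through its knockdown libraries alone, so separate groups were a condition of that test. Neither PYCARD nor IFNG was among the listed genes, so their levels are not analysed here.

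The remaining large rises included SLC9A3-AS1, antisense to a sodium/proton exchanger gene, with 38.5, 38.2 and 34.9 in the knockdown and 16.5, 17.5 and 9.21 in the controls. Its mean was 2.58-fold higher without overlap (log2 fold change 1.36 ± 0.23 SE, adjusted p = 0.000215). TSPOAP1-AS1 rose 2.61-fold, from a control range of 7.47 to 10.6 to a knockdown range of 23.0 to 27.2 (log2 fold change 1.31 ± 0.19 SE, adjusted p = 9.06e-05). H1-10-AS1, antisense to a linker histone gene, rose 2.5-fold, from 9.40 to 12.5 in the controls to 25.4 to 29.1 in the knockdown (log2 fold change 1.26 ± 0.18 SE, adjusted p = 7.75e-05). BHLHE22-AS1 and FRMD6-AS2, also among the 10 largest rises, are described with their sense genes below.

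Of the antisense RNAs that fell, MTUS2-AS1 fell furthest. Its values were 0.34, 0.28 and 0.44 in the knockdown and 5.99, 4.43 and 3.92 in the controls. Every knockdown library was under 1 and every control well above it, a 13.5-fold lower mean (0.353 ± 0.0808 against 4.78 ± 1.08; log2 fold change -2.08 ± 0.18 SE, adjusted p = 2.97e-06). MTUS2-AS1 entered the test through its controls alone, so separate groups were a condition of that test. EMC1-AS1, which faces a subunit gene of the endoplasmic reticulum membrane complex, the machinery that inserts proteins into the same membrane RNF5 sits in, had 2.17, 3.52 and 2.07 in the knockdown and 9.48, 13.3 and 13.3 in the controls. The groups were apart, with a 4.65-fold lower mean (log2 fold change -1.87 ± 0.22 SE, adjusted p = 2.49e-05), and 53.6% of its exonic length lay over EMC1 exons. GLIPR1-AS1, which shares no exonic base with its sense gene, had 0.50, 0.53 and 0.26 in the knockdown and 4.47, 2.92 and 4.43 in the controls. It was 9.16-fold lower on average, again without overlap (log2 fold change -1.78 ± 0.18 SE, adjusted p = 9.21e-06). GLIPR1-AS1 too entered the test through its controls alone.

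The smaller falls named here were chosen under the same condition of separate groups. DDX59-AS1, antisense to a helicase gene, had 1.49 to 2.02 in the knockdown and 3.8 to 5.28 in the controls (2.56-fold lower, log2 fold change -1.0 ± 0.19 SE, adjusted p = 0.000459). TTBK2-AS1, whose whole exonic length lies over exons of the gene of a kinase needed to build cilia, had 1.67, 3.69 and 2.24 in the knockdown and 5.61, 5.08 and 5.37 in the controls. Its mean was 2.11-fold lower, with knockdown library 2 closest to the controls (log2 fold change -0.89 ± 0.23 SE, adjusted p = 0.00267). ILRUN-AS1 had 23.2, 17.4 and 17.9 in the knockdown and 33.1, 30.4 and 48.4 in the controls, a 1.91-fold lower mean (log2 fold change -0.88 ± 0.21 SE, adjusted p = 0.00184). PSMD6-AS2, antisense to a proteasome subunit gene, had 1.61, 2.47 and 1.80 against 5.45, 3.38 and 3.91, a 2.17-fold lower mean (log2 fold change -0.82 ± 0.21 SE, adjusted p = 0.00277).

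In the 15 pairs where the sense gene was listed too, 14 moved in the same direction and CEBPB alone had opposite directions. Both partners had higher means in 9 pairs and lower means in 5. Of the 15 sense genes, 12 had values high enough to test, and 7 were called higher and 5 lower, shares near the 55.7% and 42.0% of all tested genes. In 9 pairs both partners were tested and called in the same direction. Because both partners had to pass the authors' selection, pairs in which only the antisense RNA changed cannot appear among them. The difference between the 2 changes was taken per library as log2(antisense + 1) minus log2(sense + 1), and its exact 2-sided permutation test cannot give a p under 0.1 with 3 against 3. That p of 0.1 was reached in the 6 pairs whose log ratios did not overlap between groups (adjusted p = 0.25 over 15 pairs). With 0.1 added in place of 1, the log ratios of CEBPB, BHLHE22 and ASB16 still did not overlap, those of ALDH1A3, CXXC4 and SH3BP5 did, and those of DAAM2 no longer did. On log2(value + 1) the median size of the difference over all 15 was 0.36.

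**Figure D4:**
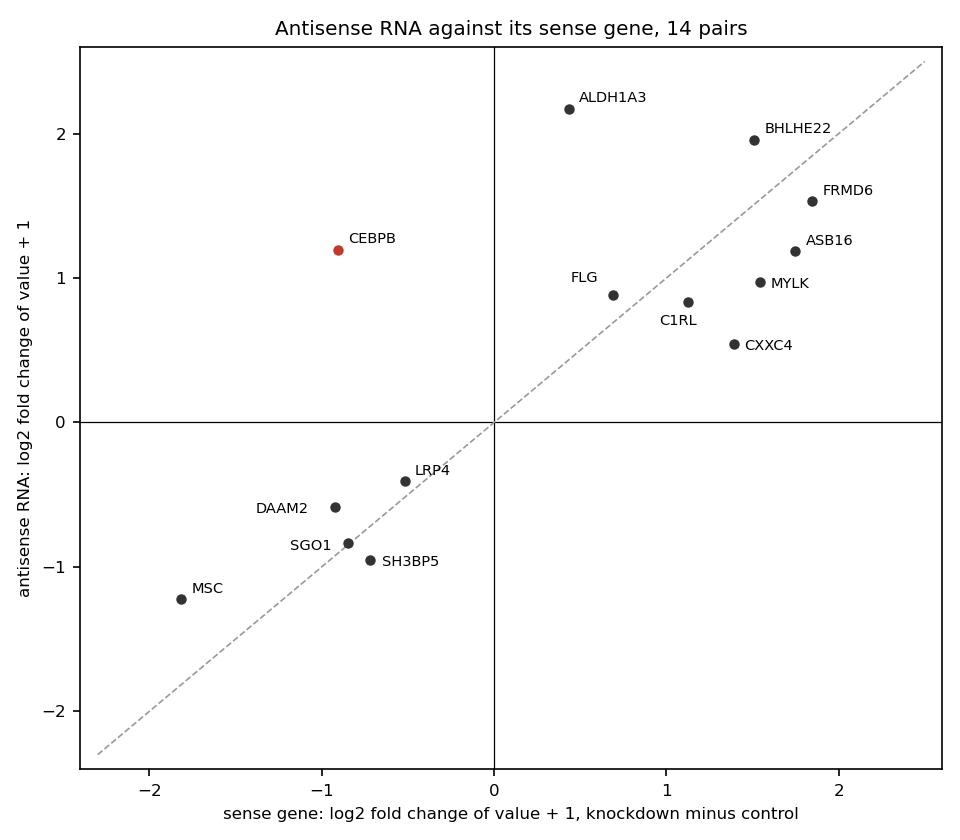
Log2 fold change of each antisense RNA against that of its sense gene in 14 of the 15 pairs, both on log2(value + 1), with the line of equal change. CEBPB-AS1 is the only point with the antisense RNA above 0 (1.2) and the sense gene below 0 (-0.91).

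CEBPB encodes a basic leucine zipper transcription factor of stress and inflammatory responses, and CEBPB-AS1 runs opposite across its start, with 231 bases (8.72%) of its exons over CEBPB exons and starts 764 bases apart. CEBPB-AS1 had 12.1, 12.2 and 11.9 in the knockdown and 5.84, 4.92 and 3.52 in the controls. All knockdown libraries were above all controls (12.0 ± 0.152 against 4.76 ± 1.17, 2.53-fold higher; log2 fold change 1.2 ± 0.20 SE, adjusted p = 0.000222). CEBPB had 83.6, 59.7 and 71.2 in the knockdown and 127, 168 and 112 in the controls. Here all knockdown libraries were below all controls (71.5 ± 11.9 against 136 ± 29.2, 1.90-fold lower; log2 fold change -0.91 ± 0.20 SE, adjusted p = 0.000929). The changes differed by 2.10 ± 0.23 (SE), the largest difference of the 15 pairs, and by 1.97 to 2.27 when any 1 library was left out (exact permutation p = 0.1, the smallest possible).

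Other transcription factor genes moved with their antisense RNAs. BHLHE22, a basic helix-loop-helix factor known from neurons, had 64.5, 58.9 and 63.0 in the knockdown and 21.4, 21.9 and 20.1 in the controls. BHLHE22-AS1, across its start, had 38.0, 37.4 and 35.5 against 10.4, 9.97 and 6.47. Both partners were higher without overlap, BHLHE22 by 2.94-fold (log2 fold change 1.51 ± 0.16 SE, adjusted p = 1.18e-05) and BHLHE22-AS1 by 4.14-fold (1.96 ± 0.20 SE, adjusted p = 9.58e-06). MSC encodes musculin, a basic helix-loop-helix repressor also called activated B-cell factor, and had 29.4, 25.6 and 24.7 in the knockdown and 108, 118 and 68.8 in the controls. MSC-AS1, whose gene spans MSC whole, had 4.11, 5.91 and 6.66 against 14.7, 16.6 and 11.5. Both were lower without overlap, MSC by 3.71-fold (log2 fold change -1.82 ± 0.21 SE, adjusted p = 2.17e-05) and MSC-AS1 by 2.56-fold (-1.22 ± 0.22 SE, adjusted p = 0.000302), and the 2 changes differed by 0.59 ± 0.27 (SE; exact permutation p = 0.2).

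MYLK and FRMD6 rose together with their antisense RNAs. MYLK, the kinase that phosphorylates myosin light chains, had 59.3, 65.2 and 60.9 in the knockdown and 25.2, 27.2 and 12.5 in the controls, and MYLK-AS1 had 6.5, 4.86 and 5.53 against 3.05, 1.86 and 2.26. Both were higher in every knockdown library than in any control (log2 fold changes 1.54 ± 0.25 and 0.98 ± 0.21 SE, adjusted p = 0.000179 and 0.000822). The changes differed by -0.57 ± 0.39 (SE; exact permutation p = 0.3), and by -0.25 without control 3. FRMD6, a FERM domain protein linked to Hippo signalling, had 42.2, 41.2 and 42.6 in the knockdown and 11.7, 16.0 and 6.89 in the controls. FRMD6-AS2, the only antisense RNA of the 15 pairs with no exonic base over its sense gene, had 6.02, 7.60 and 5.89 against 1.79, 1.41 and 1.56. Both were again higher without overlap, by 3.64-fold and 4.10-fold (log2 fold changes 1.85 ± 0.25 and 1.53 ± 0.19 SE, adjusted p = 5.21e-05 and 3.05e-05). On log2(value + 1) the changes differed by -0.32 ± 0.36 (SE; exact permutation p = 0.6) and by -0.02 without control 3. With 0.1 added in place of 1 the difference was 0.03, so its sign followed the constant.

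Genes of Wnt signalling were on both sides. CXXC4, an inhibitor of the pathway, had 16.1, 22.5 and 18.6 in the knockdown and 7.59, 6.27 and 6.0 in the controls (2.88-fold higher, log2 fold change 1.39 ± 0.20 SE, adjusted p = 6.77e-05). CXXC4-AS1 had 0.74, 1.23 and 0.69 against 0.23, 0.24 and 0.39, too low to be tested, with a 3.09-fold higher mean and separate groups. Their changes differed by -0.85 ± 0.15 (SE) on log2(value + 1) and by -0.17 with 0.1 added in place of 1, so the size of that difference followed the constant (exact permutation p = 0.1 and 0.6). DAAM2, a formin of the same pathway, had 0.67, 1.09 and 0.69 in the knockdown and 2.84, 2.11 and 2.38 in the controls, a 2.99-fold lower mean (log2 fold change -0.92 ± 0.16 SE, adjusted p = 0.000278).

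DAAM2-AS1, which lies inside DAAM2 with 46.1% of its exonic length over DAAM2 exons, had 2.28, 3.63 and 2.86 in the knockdown and 7.87, 6.22 and 2.09 in the controls. The groups overlapped because control 3 was below all knockdown libraries, and the antisense RNA was not called (log2 fold change -0.59 ± 0.34 SE, adjusted p = 0.108, range 0.00153 to 0.412 over 11 alternatives). Without control 3 it was -1.04 with an adjusted p of 0.00153, and with the replicate number as a block it was called at an adjusted p of 0.0271. That block fit in limma gave RNF5 an adjusted p of 5.13e-64. A p so small from 6 libraries cannot reflect the spread of the single gene. The call of DAAM2-AS1 under the block is therefore not relied on. LRP4, an agrin co-receptor that also dampens Wnt signalling, had 0.14, 0.24 and 0.21 in the knockdown and 0.57, 1.12 and 0.51 in the controls and was too low to test. LRP4-AS1 had 2.36, 0.94 and 0.95 against 1.67, 0.58 and 6.03, with overlapping groups and a control mean set by control 3. It was not called (log2 fold change -0.41 ± 0.43 SE, adjusted p = 0.358). Leaving out control 2 gave -0.89 with an adjusted p of 0.0447 (range 0.0447 to 0.583 over 8 alternatives), and leaving out control 3 turned the value to 0.18, which left 13 pairs of 15 in the same direction.

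ALDH1A3, the partner of the antisense RNA with the largest rise, had 0.38, 0.59 and 0.86 in the knockdown and 0.28, 0.09 and 0.19 in the controls. Its groups did not overlap and its mean was 3.27-fold higher, at a level too low to be tested. The change of ALDH1A3-AS1 exceeded that of ALDH1A3 by 1.74 ± 0.30 (SE; exact permutation p = 0.1) on log2(value + 1), and by 1.06 with overlapping log ratios with 0.1 added (exact permutation p = 0.2). ASB16, which has the domain of cullin ubiquitin ligase adaptors, had 17.6, 15.5 and 18.5 in the knockdown and 5.71, 5.0 and 2.91 in the controls. ASB16-AS1, over its end, had 26.5, 27.8 and 27.3 against 12.6, 14.3 and 8.07. Both rose without overlap, the sense gene more (3.78-fold and 2.33-fold, log2 fold changes 1.75 ± 0.23 and 1.19 ± 0.21 SE, adjusted p = 3.99e-05 and 0.000305). The changes differed by -0.56 ± 0.13 (SE; exact permutation p = 0.1) and by -0.65 to -0.48 when any 1 library was left out.

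SGO1 encodes shugoshin, which protects cohesion at centromeres until anaphase, and had 11, 12.6 and 11.6 in the knockdown and 28.1, 18.9 and 19.6 in the controls. SGO1-AS1, whose RefSeq window shown above has 2 CpG against the 33 of SGO1, had 0.54, 1.62 and 0.79 against 2.37, 2.74 and 2.27. Both were lower in every knockdown library than in any control, with log2 fold changes of -0.85 ± 0.20 and -0.84 ± 0.20 SE (adjusted p = 0.00154 and 0.00178). Their difference was 0.01 ± 0.27 (SE; exact permutation p = 1.0) with values from -0.18 without control 1 to 0.17 without control 2, and -0.47 with 0.1 added. SH3BP5, a mitochondrial binding partner of the kinase JNK, had 2.83, 2.56 and 2.29 in the knockdown and 6.43, 4.92 and 3.56 in the controls, and SH3BP5-AS1 had 4.73, 5.80 and 5.17 against 15.4, 10.6 and 8.15. Both were lower without overlap (log2 fold changes -0.72 ± 0.22 and -0.95 ± 0.23 SE, adjusted p = 0.00681 and 0.00193), and the changes differed by -0.23 ± 0.12 (SE; exact permutation p = 0.1, and 0.4 with 0.1 added).

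The last pairs belong to secreted or structural proteins. C1RL, a protease like C1r of the complement system, had 20.1, 15.7 and 18.5 in the knockdown and 6.91, 10.8 and 6.05 in the controls, and C1RL-AS1 had 6.98, 8.28 and 9.47 against 4.24, 4.78 and 3.54. Both were higher without overlap (2.28-fold and 1.97-fold, log2 fold changes 1.13 ± 0.22 and 0.83 ± 0.20 SE, adjusted p = 0.000552 and 0.00182), which differed by -0.30 ± 0.23 (SE; exact permutation p = 0.3). FLG, the epidermal protein filaggrin, had 1.01, 0.99 and 0.99 in the knockdown and 0.31, 0.25 and 0.16 in the controls and did not reach the level needed for a test. FLG-AS1, whose gene spans FLG whole, had 1.48, 1.81 and 1.65 against 0.44, 0.33 and 0.53. Its mean was 3.8-fold higher with separate groups (log2 fold change 0.89 ± 0.13 SE, adjusted p = 8.59e-05), beside a 4.15-fold higher mean of FLG. FLG-AS1 entered the test through its knockdown libraries alone, so separate groups were a condition of that test.

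**Figure D5:**
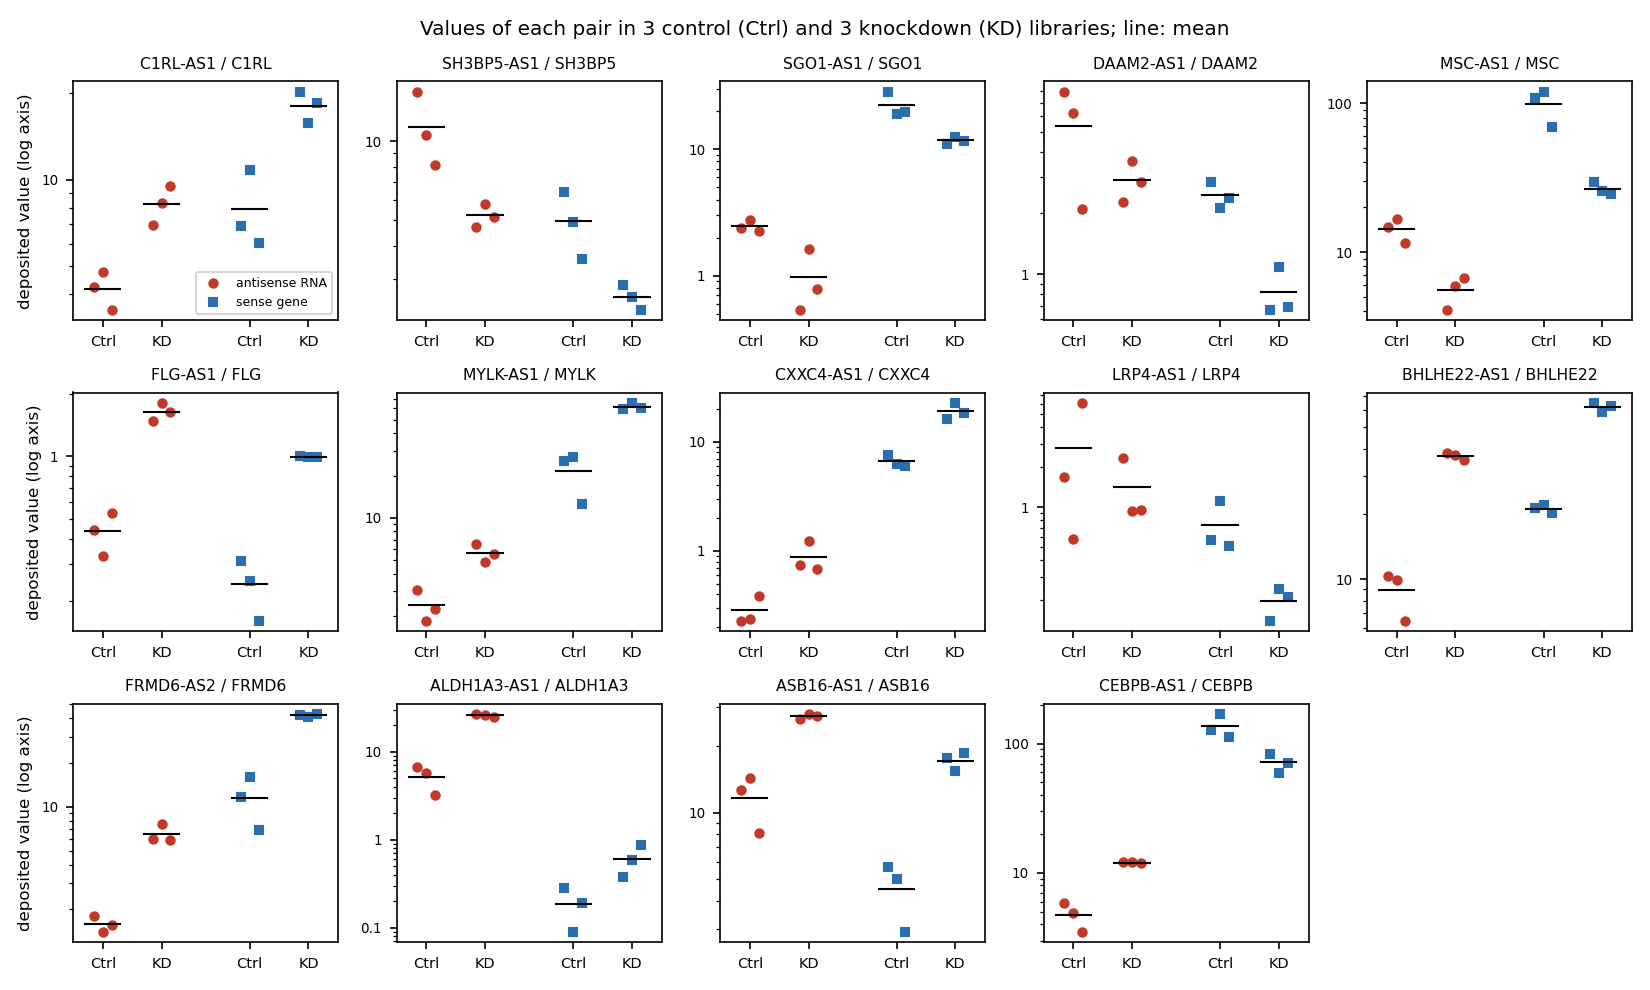
Deposited values (log axis) of both partners of 14 of the 15 pairs in each of the 6 libraries, with points for libraries and short lines for group means. In the CEBPB panel the antisense values move up from 3.52 to 5.84 in the controls to 11.9 to 12.2 in the knockdown while CEBPB moves down.

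The 16 antisense RNAs too low for the test were listed by the authors' deposited table as higher in 11 cases and lower in 5. Those with the highest group means included KCNJ5-AS1, with 0.83, 1.21 and 1.09 in the knockdown and 0.21, 0.15 and 0.18 in the controls, and GORAB-AS1, with 0.16, 0.27 and 0.36 against 0.54, 1.31 and 1.04. Their groups were separate. PLCG1-AS1 (0.87 to 1.03 against 0.22 to 0.59) and RNF213-AS1 (0.75 to 1.14 against 0.34 to 0.46) were also higher in all knockdown libraries, whereas TMSB15B-AS1 (0.87 to 1.73 against 0.31 to 0.95) overlapped. FER1L6-AS2 and NEXN-AS1, named after their values were seen, were listed at 0 in all knockdown libraries, with 0.69, 0.64 and 0.64 and with 0.16, 0.24 and 0.06 in the controls. Both group means were under 1 in 14 of the 71.

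A few of the 41 rises rested on a narrow margin, and the 3 named here were picked after their values were seen. EXTL3-AS1 had 1.36, 1.03 and 1.62 in the knockdown and 0.62, 1.11 and 0.79 in the controls, overlapping in 1 library of each group. Its call (log2 fold change 0.35 ± 0.15 SE, adjusted p = 0.0469, range 0.0224 to 0.226 over 11 alternatives) was lost without knockdown library 1 (adjusted p = 0.137), 2 (0.0503) or 3 (0.226) and without control 1 (0.155) or 3 (0.0936). It was also lost with 0.1 added (0.0676), with no filter on low values (0.0634), without the trend (0.0774) and after scaling the knockdown values down by the median offset (adjusted p = 0.128). TM4SF19-AS1 had 2.75, 2.24 and 4.98 against 2.33, 0.40 and 1.79, with knockdown library 2 below control 1. Its log2 fold change of 0.83 ± 0.32 SE (adjusted p = 0.0234) was no longer called without knockdown library 3 (adjusted p = 0.0774) or control 2 (0.132). NEPRO-AS1 had 2.41, 1.73 and 2.12 against 0.80, 0.35 and 1.74, and its log2 fold change of 0.71 ± 0.23 SE (adjusted p = 0.0102) was no longer called without control 2 (0.0596).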

How the data were processed

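RNA from 3 RNF5 knockdown and 3 control libraries of LP-1 cells was measured by sequencing. The deposited table held 1877 genes the authors had selected. Per the file headers it gave a normalized signal per library (scale not stated), group means, a fold ratio with its log2, and raw and adjusted p-values, all made by the authors. The submitters' processing notes name Bowtie 0.12.2 and hg19, without saying for which step. The signal values share no common step, so no reads were recovered, depth is unknown and no counting intervals are given.

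Genes with a value of at least 1 in 3 libraries (1290) were fitted with limma 3.58.1 in R 4.3.3, with a trend, on log2(value + 1) and the group alone. A call needed a Benjamini-Hochberg adjusted p under 0.05 over all genes tested. The log2 fold deposited by the authors was lower than that of the mean library values, by a median of 0.173 in 431 genes at 5 or more in both groups and of 0.136 in the 71 antisense RNAs. Every fold here comes from the library values. Pairs were compared with exact permutation tests in Python 3.11.15. GENCODE 29 matched 91.7% of the genes by identifier and gave arrangement and length. RefSeq gave promoters.

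Named were all members with a listed sense gene (1 pair, counted in all totals, is not reported here), the 10 largest rises and falls without overlap, the 5 highest means, members not called, and 5 outside the fit. The members and lists were chosen with earlier results of these data known.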

Additional observations from a re-analysis of the deposited data

How the results depend on the processing

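Of the 688 values recomputed under alternatives, 660 kept their call or moved by less than the spread between libraries, 12 lost and 3 gained a call, 13 moved further (counts by over 1.5 times), and no called value reversed. With 0.1 added in place of 1 the median log2 fold change of the antisense RNAs was 1.27 in place of 0.93, and 40 were higher and 12 lower. With no filter on low values the median was 0.83, with 51 higher and 16 lower. With a value of at least 5 required in 3 libraries, 23 were tested, with a median of 1.17, 18 higher and 5 lower, and 3 sense genes were lower. Dividing the knockdown values by the median offset gave a median of 0.78. The authors' deposited table gave 19 lower among all 71, a different set from the 55 tested, of which 12 were called lower. Of those 19, 5 were too low to test, and DAAM2-AS1 and LRP4-AS1 were tested and not called. Without any 1 library, 49 to 52 antisense RNAs were tested, with 34 to 40 called higher and 9 to 12 lower. Of the 53 called on all libraries, 5 were no longer tested with any 1 knockdown library left out, and 3 with any 1 control left out. Only 1 or 2 were tested and lost their call. MTUS2-AS1 and GLIPR1-AS1 could not be tested with any 1 control left out. Untested values are not among the 688. The median was 0.91 to 1.02, 13 to 14 pairs shared a direction and RNF5 was at -4.19 to -3.98. Libraries that carry the same number did not deviate together (correlations -0.165, -0.0711 and -0.0823), so the numbers are not taken as pairs. With the replicate block, 41 antisense RNAs were higher and 13 lower, with DAAM2-AS1 added, and RNF5 was at -4.06. The p-values of that fit were too small for 6 libraries (adjusted p = 5.13e-64 for RNF5 in limma), so its added call is not relied on. The pair difference at pseudocount 0.1 was 0.01 for FLG-AS1. The difference for DAAM2-AS1 was 0.34 and turned to -0.11 without control 3, and that for LRP4-AS1 was 0.11 and turned to -0.53 without control 2 and -0.19 without knockdown library 1. That for SGO1-AS1 turned to -0.16 without knockdown library 2. Depth is unknown, so how far counting noise limits the 14 antisense RNAs below 1 in both groups cannot be given.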

Other observations

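A further 72 listed rows carry no symbol of the -AS form but are described as antisense to a named gene or transcript. The genes named here were chosen after their values were seen. In 15 cases, with 13 distinct targets, the gene they face was listed too. The direction in the authors' deposited table was the same for 13 of these, 6 both higher and 7 both lower, and opposite for 2. As for the named pairs, both partners had to pass the authors' selection.

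BLK, a Src family kinase of B cells, had 15.2, 14.8 and 16.4 in the knockdown and 5.12, 4.54 and 3.44 in the controls, and the RNA antisense to it had 42.1, 53.3 and 45.9 against 15.3, 14.7 and 10.9. Both were higher in all knockdown libraries than in any control (log2 fold changes 1.63 and 1.72, adjusted p = 2.33e-05 and 1.59e-05). HSPA8, the constitutive cytosolic HSP70 chaperone, had 433, 537 and 479 in the knockdown and 1300, 1133 and 866 in the controls, and its antisense RNA had 3.23, 2.80 and 2.65 against 5.69, 5.95 and 10.1. Both were lower without overlap (log2 fold changes -1.17 and -1.04, adjusted p = 8.57e-05 and 0.00101).

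The pairs with opposite directions were those of CACYBP and SLC14A1. CACYBP, which links the ubiquitin ligase SIAH1 to its adaptors, had 203, 202 and 203 in the knockdown and 567, 530 and 498 in the controls (log2 fold change -1.39, adjusted p = 7.87e-06), whereas its antisense RNA had 0.68, 1.38 and 1.79 against 0.42, 0.07 and 0.45. The urea transporter gene SLC14A1 had 1.77, 1.51 and 1.34 against 0.23, 0.31 and 0.06 (log2 fold change 1.08, adjusted p = 2.43e-05), and its antisense RNA had 0.07, 0.03 and 0.04 against 0.41, 0.38 and 0.35. SLC14A1 entered the test through its knockdown libraries alone, so separate groups were a condition of that test. Both antisense RNAs were too low to be tested, and their groups did not overlap.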
